A study of Mus musculus with 6 samples.

Results

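The subject is a set of 45 mouse genes of the DNA damage response, measured in maturing red cell precursors after knockdown of Mi2β. The genes were listed by symbol, and the rule for membership uses no difference between the groups. The genes and the further lists below were, however, chosen with earlier results of these data known. There were 19 genes of p53 itself, its inhibitors and its targets, and 26 genes of damage signalling and repair. Each gene was represented by the probe with the highest mean signal among those of its probes that 3 or more of the 6 arrays detected well above background. By that rule 41 of the 45 genes could be tested, within 22133 features (genes and other transcripts) on the array.

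The cells were G1E-ER-GATA-1, an immortalised mouse line of erythroid progenitors that lacks its own GATA-1 and carries GATA-1 fused to the hormone-binding part of the oestrogen receptor, which β-estradiol switches on. The 3 knockdown samples received an siRNA specific for Mi2β, and the 3 control samples received a non-targeting siRNA. Both groups were nucleofected at 0 h and 24 h, were given β-estradiol at 24 h and were harvested at 48 h, so every sample had 24 h of GATA-1 activity and the electroporation itself is common to both groups. An siRNA acts transiently and leaves part of the message, and each array reports the whole culture; fewer cells of a type and less RNA per cell cannot be told apart in such samples. Nothing in the labels tells whether the replicates were grown and transfected apart, and the p-values reflect the spread among these samples alone, which may be technical.

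p53, encoded by Trp53, is a transcription factor that cells hold at a low level by constant destruction through Mdm2. DNA breaks activate the kinases ATM and ATR, which act through Chk2 and Chk1 and on p53 itself; stabilised p53 then switches on genes of cell cycle arrest, metabolism, repair and death. A separate set of enzymes carries out repair, by homologous recombination, end joining, excision or mismatch correction, and many of their genes are transcribed mostly in dividing cells. In red cell precursors GATA-1 drives cells toward their last divisions. Mi2β is the product of Chd4 and serves as the nucleosome-moving ATPase of NuRD, a complex that also contains histone deacetylases.

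Values are log2 intensities of a probe relative to the 75th percentile of its array, so 0 is the 75th percentile; they compare arrays for 1 probe, not probes with each other. Changes are Mi2β siRNA minus control siRNA on the log2 scale. "Rose" and "fell" mean an adjusted p under 0.05 by limma, with Benjamini-Hochberg adjustment over all 22133 features. The siRNA target was measured first. Chd4 was at 4.62, 4.60 and 4.54 on the knockdown arrays, against 5.93, 6.00 and 5.75 on the control arrays. It fell by 1.31 (SE 0.10, adjusted p = 0.0016), or 2.48-fold, with every knockdown array below every control array.

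All 6 arrays lay on 1 slide, in 2 rows that each held both groups. No column held both: control replicates 1 to 3 lay in columns 1, 3 and 1, and knockdown replicates 1 to 3 in columns 2, 4 and 2. A difference between columns therefore cannot be told apart from the difference between the groups, also with row as a block. Across genes, the arrays of a group correlated at r = 0.987 to 0.994, and arrays of different groups at r = 0.980 to 0.987. The knockdown arrays detected 61.2%, 74.0% and 48.5% of probes above background, against at most 56.4% on a control array, and no spot was saturated. All 8 erythroid markers were well above background on at least 3 arrays, and their summed level was 1350 to 1531 times the array's 75th percentile in knockdown samples and 1481 to 1499 times in control samples. Within that sum Alas2 rose by 1.06 (adjusted p = 0.0047), Ahsp fell by 1.11 (adjusted p = 0.0045) and Slc4a1 fell by 1.04 (adjusted p = 0.0121), while Klf1, Epor, Tfrc and Hba-a1 did not pass. Of 6 megakaryocyte markers 5 were measured, with a summed level of 11.4 to 14.8 in knockdown samples and 33.1 to 38.7 in control samples; Ppbp was well above background on no array. The mast cell, myeloid and lymphoid lists each had 3 of 6 markers measured, with summed levels of 0.65 to 0.77, 6.62 to 7.16 and 8.31 to 9.63 in knockdown samples and of 0.54 to 0.63, 5.86 to 7.59 and 9.04 to 10.6 in control samples. Mcpt8, Fcer1a, Ms4a2, Lyz2, S100a8 and Ms4a1 were well above background on no array. The part that these differences in cell markers have in the results below was not tested.

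Most of the damage response genes did not pass the test, and their changes were mostly within 2-fold. The median size of change, whatever its sign, was 0.28 on the log2 scale, against 0.22 over all features. Of the 41 genes tested, 1 rose (Phlda3), 2 fell (Trp53inp1 and Mdc1) and 38 did not pass the test. These 3 are 7.32% of the genes tested, against 9.56% called among all 22133 features, so the share called was near that of the array as a whole. With array median scaling none of the 3 passed, at an adjusted p of 0.498 for Phlda3, 0.196 for Trp53inp1 and 0.188 for Mdc1, with changes of 0.67, -0.93 and -0.94. The rise is 1 of 41 where 4.99% of all features rose, and the falls are 2 of 41 where 4.56% of all features fell. The 95% interval of the change lay within 2-fold either way for 36 of the 41 genes, the exceptions being Phlda3, Trp53inp1, Gtse1, Rrm2b and Brca1, and it included 0 for 28 of them. Before adjustment p was under 0.05 for 3 genes that were higher and 10 that were lower with Mi2β siRNA, 13 of 41, where 23.9% of all features had such a p.

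**Figure D1:**
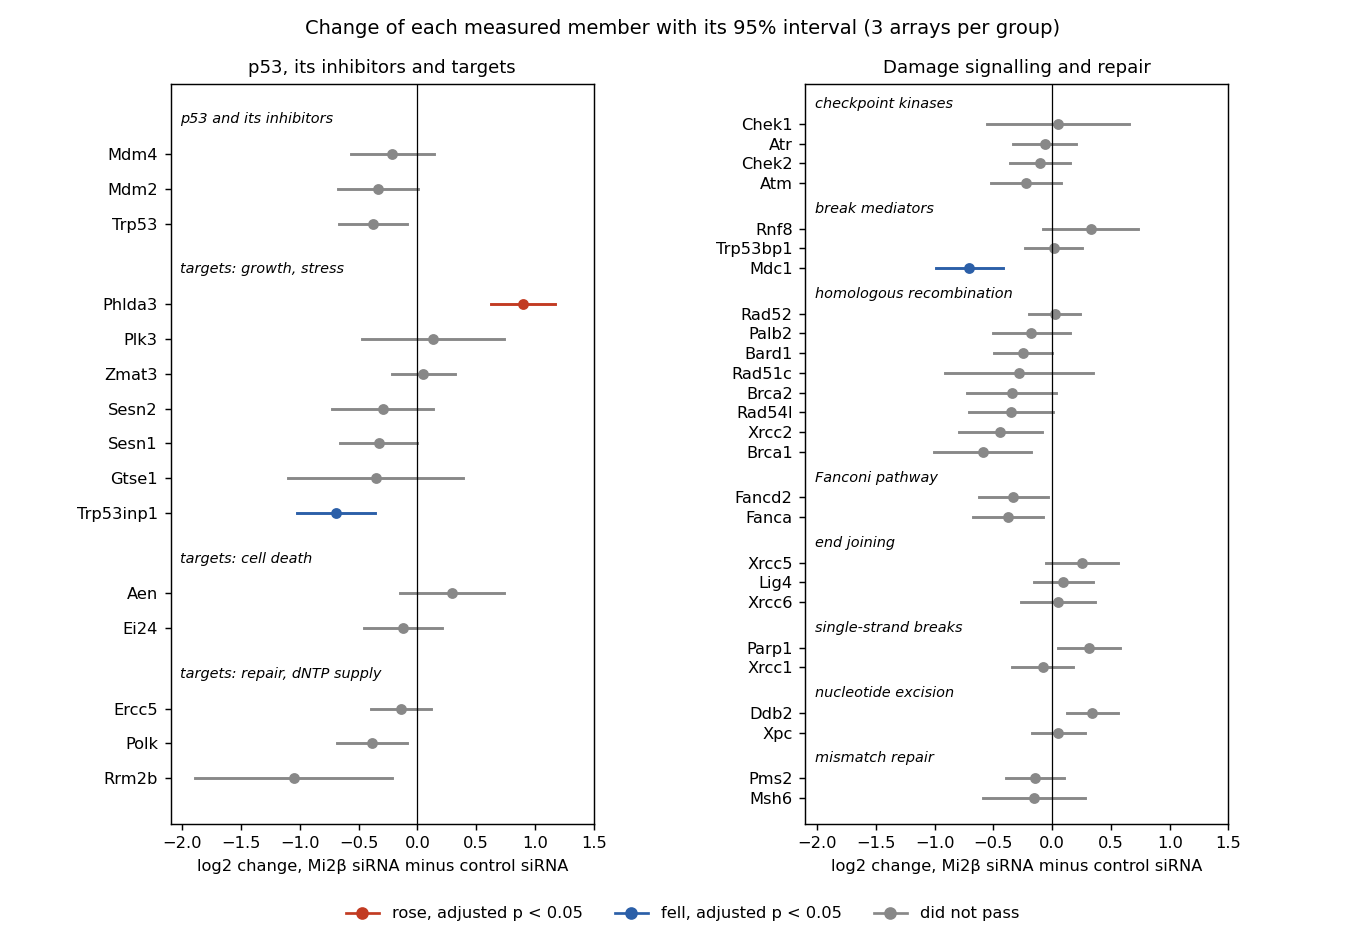
Log2 change of each of the 41 measured genes, Mi2β siRNA minus control siRNA, with its 95% interval from the limma fit (3 arrays per group), grouped by role. Phlda3 stands at 0.90 to the right; Trp53inp1 at -0.70 and Mdc1 at -0.71 stand to the left, and most other intervals include 0.

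Trp53 itself was at 2.34, 2.37 and 2.13 on the knockdown arrays, against 2.80, 2.56 and 2.61 on the control arrays. All 3 knockdown values were below all 3 control values. Its change of -0.38 (SE 0.12, 95% interval -0.67 to -0.09) did not pass the adjusted threshold (adjusted p = 0.116), and did with a prior variance that follows intensity (adjusted p = 0.0469).

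Its inhibitors did not pass either. Mdm2, the ubiquitin ligase that marks p53 for destruction and is itself a p53 target, was at 4.49, 4.32 and 4.68 with Mi2β siRNA and at 4.90, 4.94 and 4.66 with control siRNA. The groups overlapped by knockdown replicate 3, which was above control replicate 3, and the change was -0.34 (95% interval -0.67 to 0.00, adjusted p = 0.211). Mdm4, a relative of Mdm2 that binds p53 and blocks its activity as a transcription factor, was at 1.23, 0.98 and 0.81 in knockdown samples and at 1.28, 1.31 and 1.08 in control samples. The groups overlapped, the change was -0.21 (adjusted p = 0.442), and a second Mdm4 probe changed by 0.18, in the other direction.

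Among p53 targets that act on growth and stress signals, Phlda3 rose and Trp53inp1 fell. Phlda3 encodes a small protein with a lipid-binding pleckstrin homology domain that competes with Akt for the membrane. Its values were 1.15, 1.02 and 0.93 on the knockdown arrays, against 0.25, 0.13 and 0.02 on the control arrays. The lowest knockdown value was 0.67 above the highest control value. The change was 0.90 (SE 0.11, adjusted p = 0.0070), a rise of 1.87-fold, at a probe on chr1:137665642-137665701 (mm9). A fit with slide row as a block gave 0.90 (adjusted p = 0.0110). Row 1 alone, with 2 arrays of each group, gave 0.89 and no call (adjusted p = 0.0571); row 2, with 1 array of each group, gives no test.

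Trp53inp1 encodes a stress-induced nuclear protein that works with kinases that phosphorylate p53 and also takes part in autophagy. It was at 0.33, 0.50 and 0.78 with Mi2β siRNA, against 1.19, 1.26 and 1.25 with control siRNA. The control arrays lay close together, the knockdown arrays were more spread, and the groups did not overlap. It fell by 0.70 (SE 0.14, adjusted p = 0.0309), or 1.62-fold, at chr4:11101174-11101233 (mm9), and a second probe of the gene changed by -0.56. The row block gave -0.70 (adjusted p = 0.0371) and row 1 alone gave -0.81 (adjusted p = 0.0667). The call also ended without knockdown replicate 1 (adjusted p = 0.109) or replicate 2 (0.0961) and without control replicate 1 (0.0964), replicate 2 (0.0993) or replicate 3 (0.0812), while the change stayed between -0.59 and -0.72 in those fits.

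The 5 other growth and stress targets that were measured did not pass the test. Sesn1 and Sesn2, sestrins that restrain the growth kinase mTORC1, changed by -0.33 and -0.30. Gtse1, which binds p53 and microtubules in G2, changed by -0.35 with an interval of -1.10 to 0.39, and control replicate 3 at -0.11 lay well below the other control arrays at 1.01 and 0.62. The polo-like kinase gene Plk3 changed by 0.13 and Zmat3, an RNA-binding zinc finger protein, by 0.05, and both signs turned with array median scaling (-0.10 and -0.18). Plk2 was well above background on no array, and Gdf15, a secreted stress hormone, on 1 knockdown array and no control array, so no change is given for them.

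Of the targets linked to cell death, Aen, a nuclease, changed by 0.29 and a second probe also by 0.29, and Ei24, a membrane protein of the endoplasmic reticulum, changed by -0.12. Neither passed the test. The death receptor gene Fas was well above background on no array and Perp, a membrane protein of cell junctions, on no knockdown array and 1 control array.

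The targets that act in repair or nucleotide supply were all lower in knockdown samples, without passing the test. Rrm2b, the p53-inducible small subunit of ribonucleotide reductase, was at -4.13, -4.62 and -5.11 on the knockdown arrays, against -2.98, -3.85 and -3.86 on the control arrays. The groups did not overlap, but the probe was dim, being well above background on 2 of the 3 knockdown arrays, and the change of -1.05 (SE 0.34, adjusted p = 0.127) shrank to -0.33 with normexp background correction, whose offset compresses dim signals. Polk, a DNA polymerase that copies past damaged bases, changed by -0.39 (adjusted p = 0.114) and by -0.29 at a second probe. Ercc5, an endonuclease of nucleotide excision repair, changed by -0.14, and by -0.58 at a dimmer second probe.

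Over all 15 p53 pathway genes tested, 1 rose, 1 fell and 13 did not pass, which is 13.3% called against 9.56% of all features. The median change was -0.30, against -0.03 over all features, with 4 positive and 11 negative changes. Negative changes were 73.3% of the 15, against 54.5% of all features. The groups did not overlap for 6 of the 15, where 31.1% of all features did not, and of the 6 Phlda3 was higher in knockdown samples and Trp53, Trp53inp1, Polk, Ercc5 and Rrm2b were lower. Those lower without overlap are 33.3% of the 15 genes, and 18.4% of all features were lower without overlap. The median was negative under each scaling, at -0.22 with quantile normalization and -0.53 with array median scaling; the second moves all genes alike and the median of all features to -0.27. Relative to all features the p53 median was -0.26, and it was -0.17 with quantile normalization, -0.14 without knockdown replicate 2 and -0.15 without control replicate 1.

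**Figure D2:**
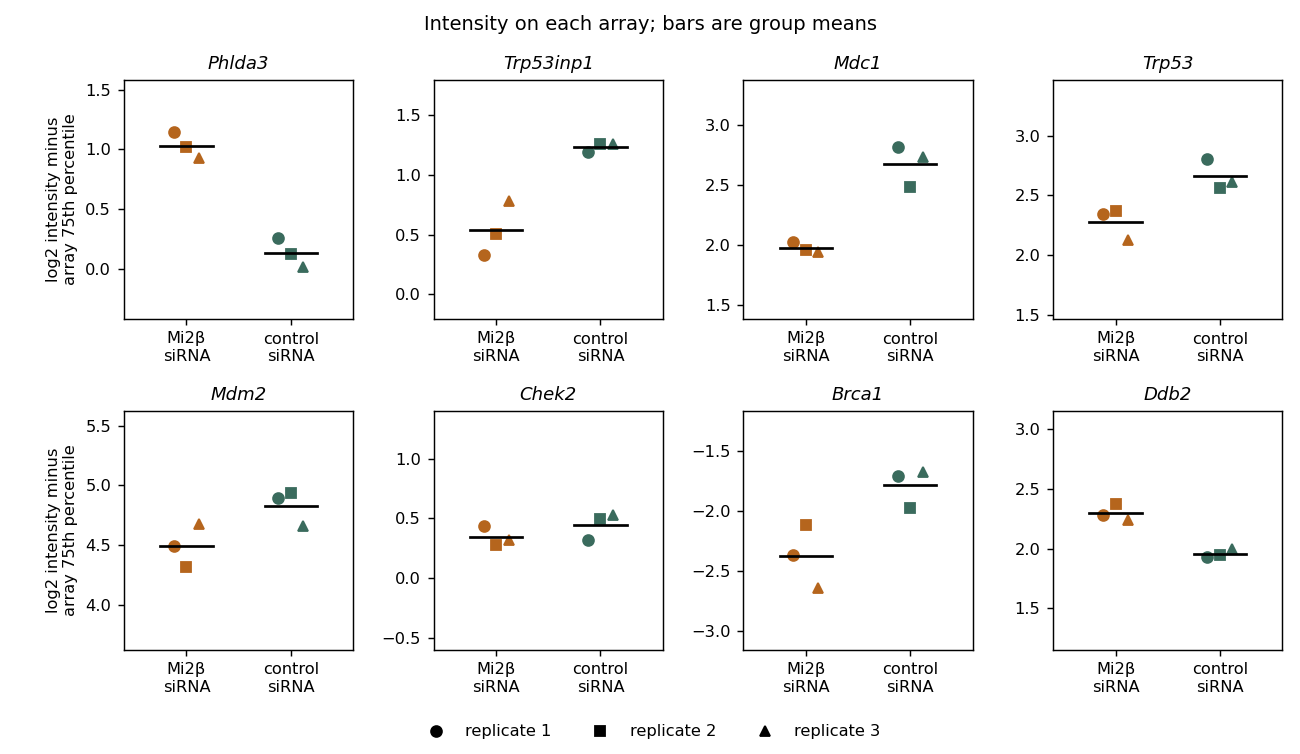
Log2 intensity relative to the array's 75th percentile on each array for 8 genes, with Mi2β siRNA left of control siRNA; marker shapes are replicates, bars are group means and each panel spans an equal range around its own centre. Phlda3 and Ddb2 lie higher in all knockdown samples, Trp53inp1, Mdc1, Trp53 and Brca1 lie lower in all of them, and Mdm2 and Chek2 overlap.

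Promoter sequences of the p53 pathway are shown so that their letters can be read beside the changes. They come from RefSeq (GRCm38.p6) and run from 250 bases before to 50 after a start site, and 37 of the 45 genes had an entry. Trp53inp1, the p53 pathway gene that fell, had none and was not searched, nor were Zmat3, Perp, Rrm2b, Xrcc2, Fancd2, Xpc and Ddb2. The sequence around the start of Phlda3, the gene that rose, lies at chr1:135765835-135766134 on the plus strand and has 71.7% G and C. The capitals mark its 3 GC boxes (GGGCGG on either strand, bound by Sp1-type factors), a motif found in 49.2% of the promoters of 17492 protein-coding genes.
Phlda3: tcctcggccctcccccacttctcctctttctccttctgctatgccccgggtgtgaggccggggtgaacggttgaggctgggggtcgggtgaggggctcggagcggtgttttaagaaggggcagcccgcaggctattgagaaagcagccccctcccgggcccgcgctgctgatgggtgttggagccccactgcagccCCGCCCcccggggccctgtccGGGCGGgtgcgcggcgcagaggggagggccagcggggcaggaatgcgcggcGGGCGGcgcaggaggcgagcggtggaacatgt
No match to the 10-base p53 half-site lies in this window, which says only that those letters are not in it. A half-site match lay in the window of 7 of the 15 p53 pathway genes with an entry (46.7%). Such a match lay in that of 1 of 22 repair genes (Fanca, 4.5%) and of 8.5% of all protein-coding genes. A gene with several start sites had several chances. The 15 p53 pathway genes with an entry are not the 15 tested above. They include Plk2, Gdf15 and Fas, which were not tested, and leave out Trp53inp1, Zmat3 and Rrm2b, which were. The matches of these 7 p53 pathway genes are shown with the half-site in capitals, since they are the p53-type letters found inside the windows. Sequence beyond the windows was not searched. For Sesn1 and Gtse1 the match lies by the second start site listed for the gene. A match is a description of the sequence and not a bound site.
Trp53, chr11:69580274-69580303, plus strand: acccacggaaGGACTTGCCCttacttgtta
Mdm2, chr10:117710925-117710954, minus strand: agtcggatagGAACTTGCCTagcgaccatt
Sesn1, chr10:41887256-41887285, plus strand: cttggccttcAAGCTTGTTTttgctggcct
Gtse1, chr15:85859945-85859974, plus strand: gagcaagttgGGGCTTGCCTctgacttgcc
Aen, chr7:78895927-78895956, plus strand: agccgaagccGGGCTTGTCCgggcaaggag
Ei24, chr9:36797325-36797354, minus strand: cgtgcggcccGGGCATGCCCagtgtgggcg
Polk, chr13:96519399-96519428, minus strand: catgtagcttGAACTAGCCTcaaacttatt
None of these 7 genes passed the test, and their changes ran from -0.39 (Polk) to 0.29 (Aen).

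Other well-known p53 targets, taken as a list of 20 genes outside the 45, moved in both directions. Of 16 tested, 2 rose, 3 fell and 11 did not pass, with a median of -0.22. The 5 called are 31.2% of the 16, against 9.56% of all features. That share is a description only, because the list was chosen with earlier results of these data known. Pmaip1, Eda2r, Dram1 and Cdkn2a were not tested, being detected on fewer than 3 arrays. Bax, which opens the mitochondrial outer membrane in cell death, was at 5.12, 5.18 and 5.10 on the knockdown arrays and at 4.55, 4.64 and 4.41 on the control arrays, and rose by 0.60 (SE 0.10, adjusted p = 0.0183). Cdkn1a, the p21 inhibitor of cyclin-dependent kinases, was at 4.22, 4.15 and 4.40 in knockdown samples and at 3.72, 3.64 and 3.66 in control samples, and rose by 0.59 (SE 0.11, adjusted p = 0.0218). Both genes were higher on every knockdown array, but 2 dimmer Cdkn1a probes changed by 0.15 and -0.07, and averaging the probes of Cdkn1a gave 0.22 (adjusted p = 0.222). With array median scaling neither passed, at 0.37 for Bax (adjusted p = 0.718) and 0.35 for Cdkn1a (adjusted p = 0.726).

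Bbc3, which encodes Puma, a trigger of Bax, moved the opposite way. It was at 2.05, 2.20 and 2.28 with Mi2β siRNA and at 3.36, 3.18 and 3.36 with control siRNA, and fell by 1.12 (SE 0.11, adjusted p = 0.0032), or 2.18-fold. It kept its call in all 17 alternative settings, with an adjusted p of at most 0.0427. Tap1, a peptide transporter for antigen display, fell by 0.93 (SE 0.16, adjusted p = 0.0213), and Tigar, a phosphatase that lowers glycolytic flux, fell by 0.64 (SE 0.13, adjusted p = 0.0383), both at dim probes. Ccng1, which encodes the p53 target cyclin G1, was named after its values were seen: it changed by -0.47 and did not pass (adjusted p = 0.0557).

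The calls of Bax, Cdkn1a, Tap1 and Tigar were each lost in several of the fits that left out 1 array. Calls over all features dropped in those fits too, from 2115 with every array to between 813 and 1579. A lost call alone therefore does not show dependence on a particular array. Bax lost its call without knockdown replicate 1 (adjusted p = 0.0917), replicate 2 (0.0683) or replicate 3 (0.0527) or without control replicate 1 (0.0717). Cdkn1a lost it without knockdown replicate 1 (0.0961) or replicate 3 (0.0580) or without control replicate 1 (0.0735), replicate 2 (0.0746) or replicate 3 (0.0612). Tap1 lost it without knockdown replicate 1 (0.0764) or control replicate 1 (0.0855) or replicate 2 (0.0790), and Tigar without knockdown replicate 1 (0.157) or replicate 3 (0.0940) or control replicate 1 (0.127), replicate 2 (0.112) or replicate 3 (0.0840). With the row block the adjusted p was 0.0076 for Bbc3, 0.0296 for Bax, 0.0389 for Cdkn1a, 0.0130 for Tap1 and 0.0532 for Tigar; within row 1 it was 0.0427, 0.103, 0.117, 0.0574 and 0.154 in the same order.

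**Figure D3:**
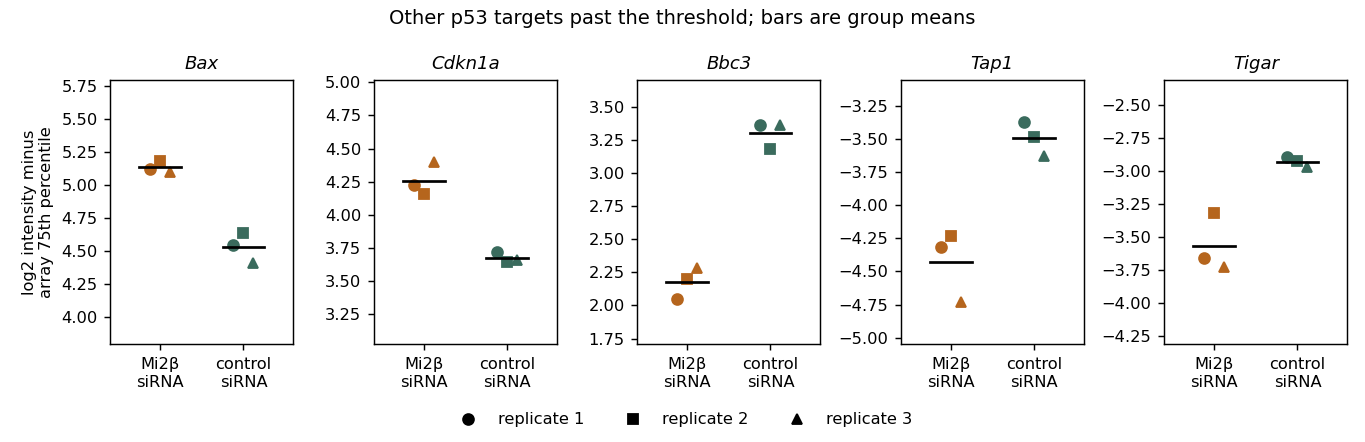
Log2 intensity relative to the array's 75th percentile on each array for the 5 genes of the list of other p53 targets that passed the threshold, with Mi2β siRNA left of control siRNA; marker shapes are replicates and bars are group means. Bax and Cdkn1a lie higher in all 3 knockdown samples, and Bbc3, Tap1 and Tigar lie lower.

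In damage signalling, the checkpoint kinases differed little. Atm, the kinase that answers double-strand breaks, was at -0.55, -0.73 and -0.90 in knockdown samples and at -0.50, -0.59 and -0.41 in control samples. The groups overlapped, with a change of -0.22 (interval -0.52 to 0.08, adjusted p = 0.343). Atr, the kinase of stalled replication forks, was at 2.92, 2.90 and 3.10 with Mi2β siRNA and at 2.92, 3.06 and 3.14 with control siRNA, with a change of -0.07 (interval -0.33 to 0.20, adjusted p = 0.771). The groups overlapped almost entirely, and a second, dimmer Atr probe changed by 0.30.

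The effector kinases were close between the groups too. Chek1, which encodes Chk1, was at -3.16, -2.29 and -3.09 on the knockdown arrays and at -2.96, -2.78 and -2.94 on the control arrays. Knockdown replicate 2 stood above all other arrays, and the change was 0.05 with a wide interval of -0.55 to 0.65 (adjusted p = 0.933). Chek2, which encodes Chk2, was at 0.44, 0.28 and 0.32 in knockdown samples and at 0.32, 0.50 and 0.53 in control samples, a change of -0.10 (interval -0.36 to 0.15, adjusted p = 0.616).

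Of the proteins that assemble at broken ends, the gene of the scaffold Mdc1 fell. Mdc1 binds phosphorylated histone H2AX and holds repair factors at the break. It was at 2.02, 1.96 and 1.94 on the knockdown arrays, against 2.82, 2.49 and 2.74 on the control arrays. The knockdown arrays lay close together and all were at least 0.46 below the lowest control array. It fell by 0.71 (SE 0.12, adjusted p = 0.0181), or 1.63-fold, at chr17:35996478-35996537 (mm9). The row block gave -0.71 (adjusted p = 0.0390) and row 1 alone gave -0.66 (adjusted p = 0.123). The call also ended without knockdown replicate 1 (adjusted p = 0.0809), replicate 2 (0.0645) or replicate 3 (0.0573) and without control replicate 1 (0.0691) or replicate 3 (0.0566). Rnf8, the ubiquitin ligase that Mdc1 recruits, changed by 0.33 and Trp53bp1, which favours end joining over recombination, by 0.01, and neither passed.

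The 8 genes of homologous recombination were mostly lower in knockdown samples, and none passed the test. Brca1, whose product acts with Bard1 as a ubiquitin ligase that promotes recombination, was at -2.36, -2.12 and -2.65 on the knockdown arrays and at -1.70, -1.98 and -1.67 on the control arrays. The groups did not overlap, and the change of -0.59 (SE 0.17, adjusted p = 0.0897) passed with normexp (-0.38, adjusted p = 0.0322), with quantile normalization (-0.64, 0.0143) and with the filter requiring all 6 arrays (-0.59, 0.0476). Brca2, a mediator of recombination at single-stranded DNA, was at 3.82, 3.30 and 3.53 with Mi2β siRNA and at 3.82, 4.02 and 3.84 with control siRNA. Knockdown replicate 1 lay only 0.0062 below control replicate 1, and the change was -0.35 (interval -0.73 to 0.04, adjusted p = 0.251).

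Bard1 changed by -0.25, Palb2, the bridge between Brca1 and Brca2, by -0.18, and Rad54l, a motor protein that aids strand invasion, by -0.35. Rad51c and Xrcc2, which act in strand exchange, changed by -0.28 and -0.44, with -0.52 at a second Xrcc2 probe. Rad52, which anneals single strands, changed by 0.02. The median of the 8 genes was -0.31, with 7 negative changes (87.5%, where 54.5% of all features were negative). For Brca1, Brca2, Bard1, Rad54l and Xrcc2 the groups did not overlap, 5 of 8 where 18.4% of all features were lower without overlap. Xrcc2 passed the threshold only without control replicate 3 (-0.58, adjusted p = 0.0496).

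The Fanconi anaemia genes, which clear crosslinks between strands, were also lower without passing. Fanca, of the core complex, changed by -0.38 (adjusted p = 0.123) and Fancd2, which that complex ubiquitinates, by -0.33 (adjusted p = 0.167), each with groups that did not overlap. Fanca passed with normexp (-0.37, adjusted p = 0.0482) and with the intensity-dependent prior (adjusted p = 0.0489). The genes of mismatch repair, Msh6 and Pms2, changed by -0.16 and -0.14, with overlapping groups, and a second Pms2 probe changed by 0.01.

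None of the genes of end joining, single-strand break repair and nucleotide excision repair passed the test. The Ku subunits Xrcc5 (Ku80) and Xrcc6 (Ku70) changed by 0.26 and 0.05 and the ligase gene Lig4 by 0.09; the signs of Xrcc6 and Lig4 turned with array median scaling (-0.18 and -0.14). Parp1, the enzyme that marks single-strand breaks with poly-ADP-ribose, was at 4.28, 4.10 and 4.10 in knockdown samples, against 3.89, 3.92 and 3.72 in control samples. The groups did not overlap, and the change of 0.31 (SE 0.11, adjusted p = 0.144) passed with normexp (0.35, adjusted p = 0.0417) and with quantile normalization (0.39, 0.0451). Xrcc1, the scaffold of single-strand break repair, changed by -0.08.

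Ddb2, which recognises ultraviolet lesions for nucleotide excision repair, was at 2.28, 2.37 and 2.24 on the knockdown arrays, against 1.93, 1.94 and 1.99 on the control arrays. The spread within each group was small and the groups did not overlap. The change of 0.34 (SE 0.09, adjusted p = 0.0715) passed with normexp (0.36, adjusted p = 0.0256), quantile normalization (0.42, 0.0438) and the intensity-dependent prior (0.0352), and was 0.11 with array median scaling. Xpc, which recognises lesions with Ddb2, changed by 0.05, and by -0.18 with array median scaling.

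Over all 26 genes of damage signalling and repair, limma called 0 rises and 1 fall (before adjustment, p was under 0.05 for 2 and 5 genes) and 25 genes did not pass, which is 3.85% called, against 9.56% of all features. The median change was -0.12, with 10 positive and 16 negative changes. Negative changes were 61.5% of the 26, near the 54.5% of all features. The groups did not overlap for 10 genes: Ddb2 and Parp1 were higher in knockdown samples and 8 were lower, which is 30.8% of the 26, against 18.4% of all features. Parp1 and Ddb2 are 7.69% of the 26, and 12.7% of all features were higher without overlap. The median was -0.07 with quantile normalization and -0.36 with array median scaling. Relative to all features it was -0.09, a value that array median scaling cannot alter because it shifts all genes alike, and it was -0.03 with quantile normalization, -0.04 with normexp and -0.03 without control replicate 2. Of the 26 changes, 4 were positive with array median scaling, against 10 with the 75th percentile.

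**Figure D4:**
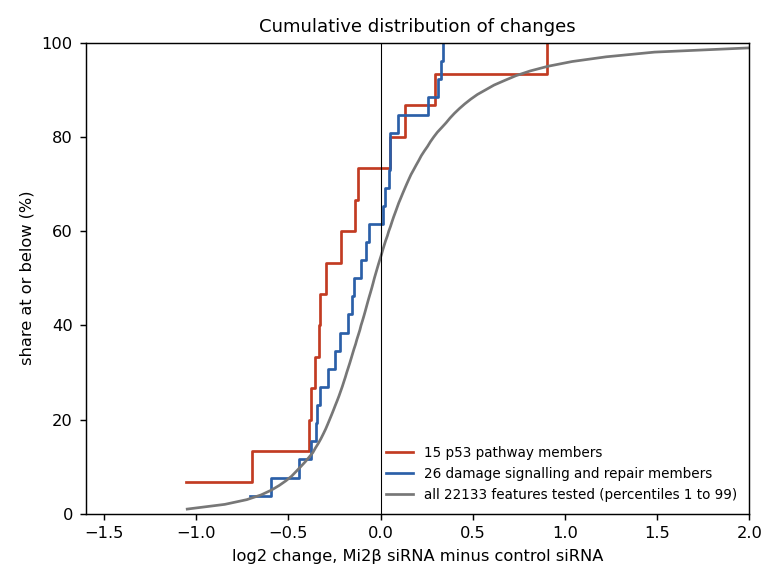
Cumulative share of genes (vertical axis, %) at or below a given log2 change, Mi2β siRNA minus control siRNA, for the 15 p53 pathway genes, the 26 signalling and repair genes and, by its percentiles 1 to 99, all 22133 features. The p53 curve lies left of that of all features in the middle of the range, with medians of -0.30 and -0.03, and the repair median is -0.12.

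Promoter letters were also counted for the repair genes. E2F factors drive genes at the start of DNA synthesis. E2F-type letters (TTTCCCGC, TTTGGCGC, TTTCGCGC or TTTGCCGC on either strand) lay in the promoters of 7 of 22 repair genes with an entry (31.8%). They lay in 0 of the 15 p53 pathway genes with an entry and in 3.3% of all protein-coding genes. The promoter of Mdc1, the repair gene that fell, is at chr17:35841248-35841547 on the plus strand of GRCm38.p6. The capitals mark, from left to right, GATA letters, a CCAAT box, the E2F letters 16 bases before the start site and a GC box.
Mdc1: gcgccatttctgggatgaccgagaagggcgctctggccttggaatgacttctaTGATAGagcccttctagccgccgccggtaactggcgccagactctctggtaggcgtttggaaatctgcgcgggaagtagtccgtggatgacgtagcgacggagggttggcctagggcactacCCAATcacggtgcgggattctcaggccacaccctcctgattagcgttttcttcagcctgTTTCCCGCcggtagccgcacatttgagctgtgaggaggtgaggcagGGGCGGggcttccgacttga
The other 6 genes with E2F letters in capitals are shown along the strand that carries them, because few other promoters hold this motif. Rad51c has a further match at another start site.
Chek2, chr5:110839821-110839848, minus strand: gacgtcttggTTTCCCGCggctaatccc
Brca2, chr5:150522443-150522470, minus strand: tgtgtgtctgTTTCCCGCtgtggcctaa
Bard1, chr1:71103164-71103191, minus strand: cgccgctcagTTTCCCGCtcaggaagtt
Rad51c, chr11:87404478-87404505, minus strand: tttccagcgcTTTCGCGCctcttgctct
Xrcc6, chr15:82016313-82016340, minus strand: cccactcgcaTTTCCCGCttccaccccc
Msh6, chr17:87975055-87975082, plus strand: tcctcccgacTTTCCCGCcagcggcggc
Of these 7 genes, Mdc1 fell and the other 6 did not pass, with changes from -0.35 (Brca2) to 0.05 (Xrcc6). The CCAAT box lay in 59.1% of the repair promoters and in 42.3% of all promoters. GATA letters, meaning AGATAA or the same with T first, G last or both, lay in 13.6% of them and in 29.5% of all promoters.

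A wider list of 63 other repair genes, all measured, was lower in knockdown samples more often than higher. By limma 0 of them rose (4 had p under 0.05 before adjustment), 6 fell (19 before adjustment) and 57 did not pass, which is 9.52% called against 9.56% of all features. The median was -0.17, with 14 positive and 49 negative changes, which is 77.8% negative against 54.5% of all features. The number called was 12 with normexp and 2 with array median scaling, and ran from 1 to 13 over the 17 alternatives. Calls over all features moved too, being 2115 by the main settings, 3080 with normexp and 831 with array median scaling. They ran from 685 to 3306 over the alternatives. The largest falls were those of Fanci, the partner of Fancd2, by 1.19 (SE 0.17, adjusted p = 0.0107), Mutyh, a glycosylase that removes adenine opposite oxidised guanine, by 1.05 (SE 0.10, adjusted p = 0.0027), Fancg, of the Fanconi core complex, by 0.86 (SE 0.14, adjusted p = 0.0178) and Neil1, a glycosylase for oxidised bases, by 0.83 (SE 0.11, adjusted p = 0.0078).

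For each of these 4 genes every knockdown array was below every control array. Mutyh was at -0.06, -0.11 and 0.04 in knockdown samples and at 0.91, 1.09 and 1.02 in control samples, with a second probe at -1.03, and it kept its call in all 17 alternative settings (adjusted p at most 0.0417). Fanci was at 1.00, 0.93 and 1.07 with Mi2β siRNA and at 2.20, 2.49 and 1.88 with control siRNA, but its dim second probe changed by 0.36 and averaging the probes gave -0.41 (adjusted p = 0.430). Fanci lost its call without knockdown replicate 1 (0.0594) or control replicate 1 (0.0511), and Fancg without knockdown replicate 1 (0.0639), control replicate 1 (0.0753) or control replicate 2 (0.0701). With array median scaling Fancg (adjusted p = 0.0790) and Neil1 (0.0935) did not pass, nor did Fancg with no detection filter (0.0637), and a second Neil1 probe changed by -0.50. With the row block the adjusted p was 0.0201 for Fanci, 0.0079 for Mutyh, 0.0132 for Fancg and 0.0202 for Neil1; within row 1 it was 0.0371, 0.0417, 0.0583 and 0.0581 in the same order.

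Genes of DNA synthesis and mitosis, which mark dividing cells, were mostly lower in knockdown samples as well. Of 17 S phase genes tested limma called 0 rises (1 gene had p under 0.05 before adjustment) and 2 falls (9 before adjustment). That is 11.8% called against 9.56% of all features. The median was -0.27, with 15 negative changes (88.2%, against 54.5% of all features). The number called was 0 with array median scaling and 7 with an intensity trend, where 831 and 3306 of all features were called. Their summed level was 1007 to 1129 times the array's 75th percentile in knockdown samples and 1135 to 1471 times in control samples. The falls were those of the replication licensing factor Cdc6, by 0.72 (SE 0.15, adjusted p = 0.0349), and of the helicase subunit Cdc45, by 0.64 (SE 0.12, adjusted p = 0.0308).

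Of 14 genes of G2 and mitosis tested limma called 0 rises (0 genes had p under 0.05 before adjustment) and 2 falls (8 before adjustment). That is 14.3% called against 9.56% of all features. The median was -0.30, with 13 negative changes (92.9%, against 54.5% of all features). The number called was 0 with array median scaling and 5 with an intensity trend, where 831 and 3306 of all features were called. The proliferation marker Mki67 fell by 0.50 (SE 0.09, adjusted p = 0.0238) and cyclin B2, Ccnb2, by 0.49 (SE 0.10, adjusted p = 0.0403). The summed level of this list was 530 to 588 in knockdown samples and 669 to 758 in control samples, without overlap. These calls were mostly lost with fewer arrays. Over all features 2115 were called with 6 arrays, and 813 to 1579 with 1 array left out. Leaving out any 1 of the 6 arrays, knockdown or control, ended those of Cdc45 (adjusted p from 0.0549 to 0.0988), Mki67 (0.0568 to 0.103) and Ccnb2 (0.0693 to 0.169), while Cdc6 kept its call without control replicate 3 (0.0307) and lost it without each of the others (0.0882 to 0.122). With the row block the adjusted p was 0.0448 for Cdc6 and 0.0485 for Mki67, and the calls of Cdc45 (0.0530) and Ccnb2 (0.0655) ended. Within row 1 none of the 4 passed, with adjusted p from 0.0806 (Cdc6) to 0.133 (Ccnb2). The part that the share of dividing cells has in the values of the repair genes was not tested.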

How the data were processed

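Total RNA (0.1 µg per sample) was labelled with Cy3 and hybridised to 1-colour Agilent arrays. The deposited files hold spot intensity on a linear scale, not normalized between arrays, from which Feature Extraction (Agilent, version 10.7.3.1 in the headers) had subtracted background; the submitters' processing notes name Feature Extraction and limma. The series' value table, deposited by the authors, repeats these intensity values (100% within 0.005), with column medians of 25.9, 36.93 and 17.83 for knockdown replicates 1 to 3 and 21.23, 16.95 and 20.92 for control replicates 1 to 3, so its scale is linear and it is not centred.

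Control spots and outlier-flagged spots were left out and spots of a probe averaged, leaving 55681 probes. From each log2 processed signal its array's 75th percentile was subtracted. A probe was kept if 3 or more arrays called it well above background, and of a gene's probes the one with the highest mean was used. Symbols come from the array design and were brought up to date with RefSeq accessions (27509 of 29150 probes with one matched, 2017 names changed). Knockdown and control were compared in R 4.3.3 with limma 3.58.1, by lmFit then eBayes (two-sided tests without covariates); p-values were adjusted by Benjamini-Hochberg over all features, with 0.05 as threshold. The number of arrays, 3 per group, limits the precision. Only the 6 deposited samples were used. The fit was tested on simulated data.

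Probe positions are in mm9, the build of the file headers; a genome in that build was not used, and the exon under a probe is not stated. Promoters are RefSeq entries of GRCm38.p6, searched on both strands. All 45 genes are named. Arrays are given singly for those of the 45 past the threshold, for 10 core genes whatever their result and for Chd4. Of the lists of other p53 targets, other repair genes and cell cycle genes, up to 4 rises and 4 falls are named. Among these, arrays are given singly for Bax, Cdkn1a, Bbc3, Mutyh and Fanci, and in a figure for Tap1 and Tigar. Ddb2 and Rrm2b were also given singly after their values were seen. The genes and lists were chosen with earlier results of these data known. Alternatives were normexp background correction (offset 50), quantile and array median scaling, other detection filters, the replicate number or the slide row as a block, row 1 alone, an intensity trend in the prior, the mean over probes, the value table, and each array left out.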

Additional observations from a re-analysis of the deposited data

How the results depend on the processing

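The number of features called ranged widely: 2115 by the main settings, 3080 with normexp, 2590 with quantile normalization, 831 with array median scaling, 2743 when all 6 arrays had to detect a probe, 993 with no detection filter, 1801 with the slide row as a block, 720 within row 1, 3306 with an intensity trend, and 813 to 1579 with 1 array left out (lowest without knockdown replicate 1). Of the p53 pathway genes 2 were called by the main settings, 1 with array median scaling, 1 with no detection filter, 0 within row 1, 3 with an intensity trend and 1 to 2 with 1 array left out. Of the signalling and repair genes 1 was called by the main settings, 5 with normexp, 4 with quantile normalization, 0 with array median scaling, 2 with the filter of all 6 arrays, 0 with no detection filter, 0 within row 1, 3 with an intensity trend and 0 to 1 with 1 array left out. Of the called genes the report names, other than the erythroid markers, which were not recomputed, none turned its direction in the 17 alternatives (16 for Tap1). Phlda3 ran from 0.67 to 0.96 and lost its call with array median scaling (adjusted p = 0.498), where all features shifted to a median of -0.27 and Phlda3 stood 0.93 above it, and within row 1. Trp53inp1 lost its call also with array median scaling (0.196) and no filter (0.100), and Mdc1 with array median scaling (0.188) and no filter (0.0707). Rrm2b gained a call with array median scaling (-1.29, adjusted p = 0.0204). The causes were not tested.

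Replicate numbers are shared by the groups, and same-numbered samples lay in neighbouring columns of the same slide row. Same-numbered samples deviated together only in part (r of deviations 0.21, -0.32 and 0.13 for replicates 1 to 3). Not every sample correlated best with its own number. With 3 samples per group these correlations cannot decide whether the numbers pair the samples. With the replicate number as a block 685 features were called, 1 p53 pathway gene (Phlda3, adjusted p = 0.0427) and 0 signalling and repair genes (Trp53inp1 0.0970, Mdc1 0.0828). Dim probes shrank with normexp, Rrm2b to -0.33, Tap1 to -0.33 and Tigar to -0.29. With 3 arrays per group a p above the threshold does not show that a gene was unchanged.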
